A study of Mus musculus with 2 samples.

Results

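The receptors for serotonin, dopamine, noradrenaline and acetylcholine were described through the open chromatin at their genes in mouse cerebral cortex. The set holds the 49 protein-coding genes, of 21800 with a unique symbol in the GENCODE M21 annotation, whose symbols begin with Htr, Drd, Adra, Adrb, Chrm or Chrn followed by the number or letter of a receptor or subunit. It has 14 serotonin receptor genes (Htr), 5 dopamine receptor genes (Drd), 6 alpha-adrenergic (Adra) and 3 beta-adrenergic (Adrb) receptor genes, 5 muscarinic acetylcholine receptor genes (Chrm) and 16 nicotinic acetylcholine receptor subunit genes (Chrn). DNase-seq, in which DNase I cuts accessible DNA in nuclei and the cut ends are sequenced, was run on left cerebral cortex of male B6CASTF1/J mice aged 18 to 20 months, F1 hybrids of C57BL/6 and the wild-derived CAST strain. The 2 libraries, called biological replicates 1 and 2, form a single group with no second condition. They have tissue entries of their own but the same donor entry, so the spread between them may be technical, and no test between groups was possible.

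Most of these receptors act through G proteins. The Htr2, Adra1 and odd-numbered Chrm receptors couple to Gq and raise calcium, the Htr1, Htr5, Adra2, Drd2-like and even-numbered Chrm receptors couple to Gi and lower cyclic AMP, and Drd1, Drd5, Htr4, Htr6, Htr7 and the Adrb receptors couple to Gs and raise it. The nicotinic receptors and the serotonin receptor built from Htr3a and Htr3b are ion channels assembled from several subunits around a pore. The cell bodies that release serotonin, dopamine and noradrenaline sit in the brainstem and midbrain, and most cortical acetylcholine comes from the basal forebrain, so the cortex is mainly a target of these transmitters. Chrna1, Chrnb1, Chrnd, Chrne and Chrng are the subunits of the receptor at the nerve-muscle junction.

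A promoter peak is here a peak within 1 kb of an annotated transcription start site of the gene, and a distal peak lies more than 1 kb from every start site, inside the gene or within 10 kb of it. The authors deposited 73221 peaks for replicate 1 and 111105 for replicate 2 in the shorter of their peak lists, used throughout unless the wider list (120015 and 178564 peaks) is named. Each peak carries the authors' signal value, whose scaling is not stated. The labelled tissue was checked on marker genes: promoter peaks in both libraries were found at 6 of 6 genes of excitatory cortical neurons, 4 of 4 pan-neuronal genes, 2 of 4 of inhibitory neurons, 2 of 4 of astrocytes and 3 of 4 of oligodendrocytes. They were also found at 2 of 8 genes of monoaminergic and cholinergic neurons, Dbh and Tph2, which are known from brainstem neurons. They were found at 0 of 4 genes of microglia, 0 of 4 of skeletal muscle and 0 of 3 of liver. The tissue was not sorted, so fewer cells with an open site and less opening per cell cannot be told apart.

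The strongest promoter peaks of 5 receptor genes show what the accessible sequence looked like. Bases inside footprints of both libraries are in capitals. Footprints are the short stretches, called by the authors, where DNase I cut less inside open chromatin. Sequences are read from the reference genome (GRCm38, mm10) over the replicate 1 peak, 5′ to 3′ on the gene's strand, without bases downstream of a start site where those are untranslated. The Chrm4 stretch is chr2:91927961-91928120 (+), in the coding exon. The Adra2b stretch is chr2:127362521-127362680 (+), upstream of the start. The Drd1 stretch is chr13:54055706-54055840 (-) and the Chrna7 stretch chr7:63212527-63212700 (-), both next to the start. The Chrnb1 stretch is chr11:69795321-69795600 (-), inside the gene.
Chrm4: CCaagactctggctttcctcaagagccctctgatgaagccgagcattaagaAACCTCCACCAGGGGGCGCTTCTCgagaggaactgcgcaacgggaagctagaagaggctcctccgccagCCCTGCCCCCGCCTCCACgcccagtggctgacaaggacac
Adra2b: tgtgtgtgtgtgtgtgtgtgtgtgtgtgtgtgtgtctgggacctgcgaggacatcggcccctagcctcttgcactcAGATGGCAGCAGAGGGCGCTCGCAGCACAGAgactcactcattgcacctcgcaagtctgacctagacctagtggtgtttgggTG
Drd1: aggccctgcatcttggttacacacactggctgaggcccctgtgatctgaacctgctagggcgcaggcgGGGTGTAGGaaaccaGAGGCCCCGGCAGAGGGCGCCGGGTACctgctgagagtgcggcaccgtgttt
Chrna7: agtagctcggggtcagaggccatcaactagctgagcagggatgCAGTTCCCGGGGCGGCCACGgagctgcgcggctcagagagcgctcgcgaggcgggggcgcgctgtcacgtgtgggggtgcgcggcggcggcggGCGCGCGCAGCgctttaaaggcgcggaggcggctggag
Chrnb1: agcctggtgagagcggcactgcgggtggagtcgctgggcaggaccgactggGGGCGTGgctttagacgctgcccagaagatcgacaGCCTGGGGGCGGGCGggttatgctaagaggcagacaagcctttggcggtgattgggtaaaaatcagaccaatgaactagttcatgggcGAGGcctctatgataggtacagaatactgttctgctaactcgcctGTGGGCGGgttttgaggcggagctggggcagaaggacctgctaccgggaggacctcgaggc

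The next stretches are 3 strong distal peaks, shown because each held a long footprint with a sequence that recurs among the receptor genes. They lie at chr9:81627021-81627200 (-) downstream of Htr1b, at chr14:74643461-74643620 (+) in an intron of Htr2a, and at chr9:55024021-55024200 (-) across a coding exon of Chrna3.
Htr1b: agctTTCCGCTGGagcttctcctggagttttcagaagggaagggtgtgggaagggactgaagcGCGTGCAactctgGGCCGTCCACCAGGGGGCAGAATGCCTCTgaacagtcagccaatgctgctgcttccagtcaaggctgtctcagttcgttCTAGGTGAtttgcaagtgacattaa
Htr2a: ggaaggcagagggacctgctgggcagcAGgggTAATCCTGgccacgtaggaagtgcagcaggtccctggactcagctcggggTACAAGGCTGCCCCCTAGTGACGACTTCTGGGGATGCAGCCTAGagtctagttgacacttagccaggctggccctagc
Chrna3: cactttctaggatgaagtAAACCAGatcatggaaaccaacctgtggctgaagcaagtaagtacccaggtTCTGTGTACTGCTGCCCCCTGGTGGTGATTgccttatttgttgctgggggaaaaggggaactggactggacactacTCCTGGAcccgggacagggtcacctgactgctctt

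The Chrm4, Adra2b, Drd1, Htr1b, Htr2a and Chrna3 sequences each hold a match to the consensus of CTCF, the zinc finger protein known for marking chromatin loop anchors and domain borders. The consensus has 14 positions, was searched on both strands with at most 2 mismatches, and was chosen after these sequences had been seen. Chrm4, Htr1b and Chrna3 matched with 0 mismatches and Adra2b, Drd1 and Htr2a with 1, and in all 6 the 14 positions lay in capitals. The Chrna7 and Chrnb1 stretches had at least 3 mismatches. They instead held the GC box GGGCGG, the site of Sp-family factors, with all 6 letters in capitals at 1 place in Chrna7 and at 2 places in Chrnb1.

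A promoter peak was present at 27 of 49 receptor genes in replicate 1 (60.7% of all protein-coding genes had one), at 31 in replicate 2 (61.2% of all) and at 26 in both (58.7% of all). Neither library had one at 17 receptor genes (36.8% of all). The receptor genes were thus close to the genome-wide share as a set, and they split by receptor class. Of the 31 G protein-coupled receptor genes, 22 had a promoter peak in both libraries and 5 in neither. Of the 18 ion channel genes, 4 had one in both and 12 in neither. Among the G protein-coupled receptors, both libraries had a promoter peak at 10 of 14 Gi-coupled, 6 of 9 Gq-coupled and 6 of 8 Gs-coupled genes.

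The promoter peaks of the receptor genes were weak beside those of all genes, without matching for CpG content. Among genes with a promoter peak in both libraries, 11 of 26 receptor genes had a CpG ratio (defined below) of 0.6 or above. Over all genes it was 9448 of 12789. Signal was not compared at like CpG ratio. Among genes with a promoter peak in both libraries, the strongest promoter peak had a median signal of 1.70 in replicate 1 and 1.45 in replicate 2 over the receptor genes, against 3.93 and 3.01 over all genes. Counting every receptor gene with a promoter peak in the library (27 and 31), the strongest one was below the median of all peaks of that library at 10 in replicate 1 and 11 in replicate 2. These medians were 1.24 and 0.894. The share over all genes was not computed. The all-gene median was exceeded only by Chrm4 (4.76) and Adra2b (4.24) in replicate 1 and by Chrnb1 (3.66) in replicate 2.

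**Figure D1:**
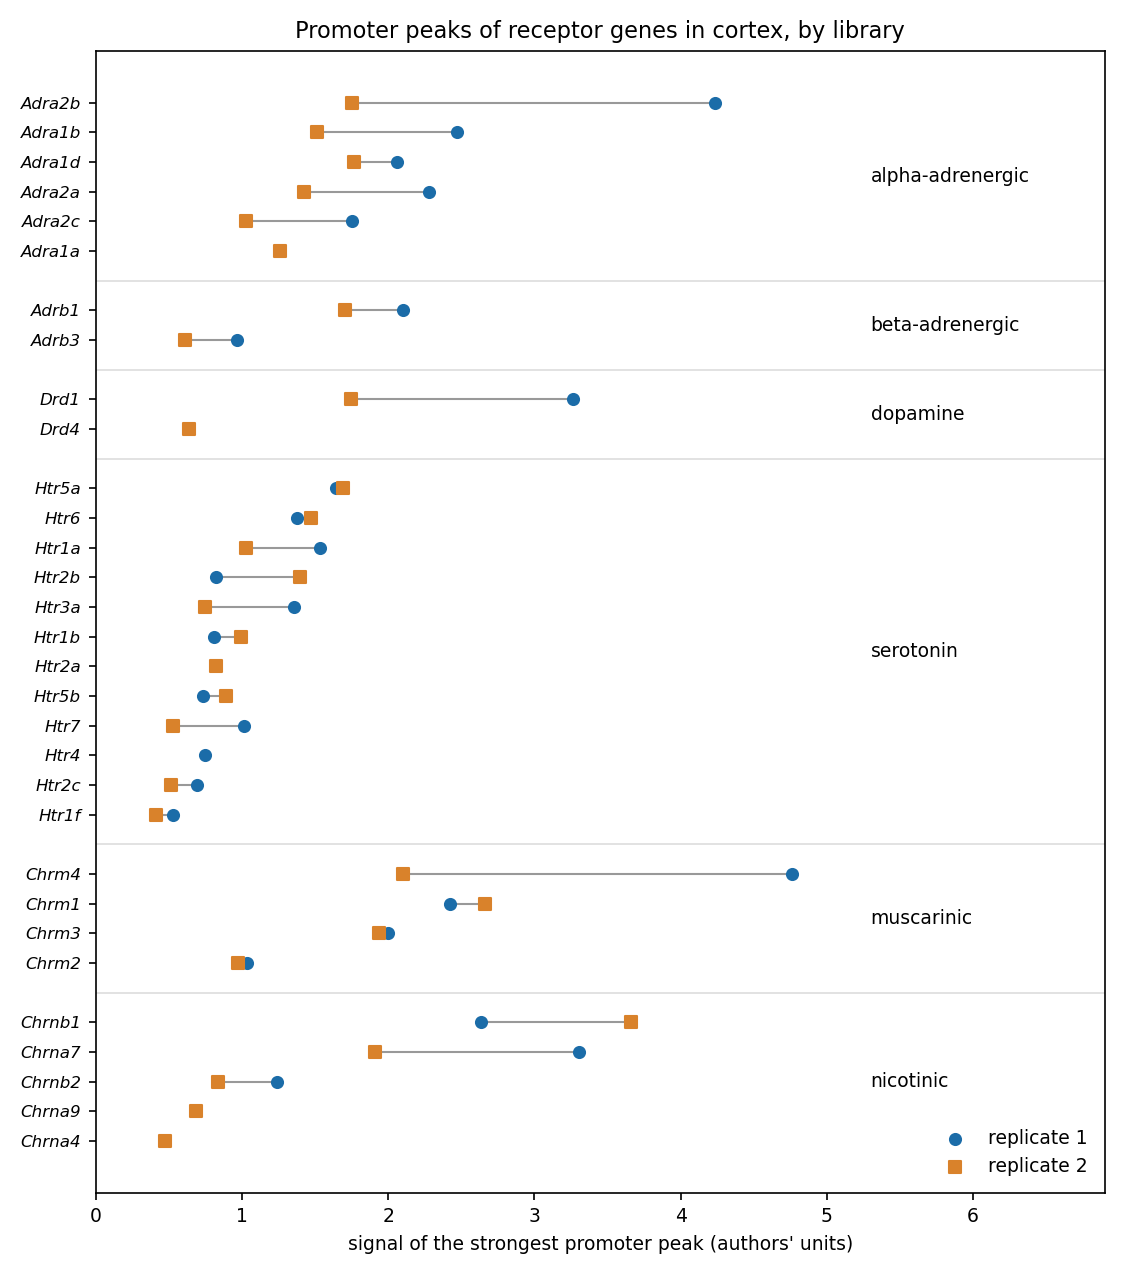
Signal of the strongest promoter peak (horizontal axis, authors' units) of the receptor genes reported here that had a promoter peak in at least 1 library, grouped by family, with replicate 1 as circles and replicate 2 as squares and a line between them where both had a peak. Chrm4 and Adra2b show the widest gaps between the libraries, and Chrnb1 is highest in replicate 2.

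Muscarinic genes held some of the strongest promoter peaks. Chrm4, which inhibits cyclic AMP and is prominent in striatum and cortex, had signals of 4.76 in replicate 1 and 2.10 in replicate 2 (mean 3.43 ± 1.88, SD, n = 2). Its peak was centred at 792 bp from the GENCODE start, inside the coding exon. The start of the RefSeq transcript lies 5060 bp further upstream and had a peak of its own, with 2.90 and 2.20, so the coding exon peak counts as a promoter peak only by the GENCODE start.

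Chrm1, a main muscarinic receptor of cortical pyramidal neurons, had 2.42 and 2.66 (2.54 ± 0.171), the narrowest spread after Chrm3 among the 10 strongest receptor genes. Its promoter held 5 listed peaks in replicate 1, of which a pair abut without a gap, and 1 in replicate 2 that overlaps both of that pair. Chrm3, coupled like Chrm1 to Gq, had 2.00 and 1.94 (1.97 ± 0.0452). Chrm2, an autoreceptor on cholinergic endings, was weaker with 1.04 and 0.974. Chrm5, known from midbrain dopamine neurons, had no promoter peak in either shorter list.

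All 9 adrenergic genes had a promoter peak in at least 1 library, and 8 had one in both. Adra2b, a Gi-coupled receptor, had 4.24 in replicate 1 and 1.76 in replicate 2 (2.995 ± 1.75), the widest spread after Chrm4. Adra1b, a Gq-coupled receptor of the cortex, had 2.47 and 1.52 (1.99 ± 0.678) at a start inside the gene. Adra1d had 2.06 and 1.77 (1.91 ± 0.205), and Adrb1, the main beta receptor of the forebrain, had 2.11 and 1.71 (1.91 ± 0.280). The means of these 2 genes were alike. The Adrb1 values come from different peaks of its promoter, so its SD is not the spread of a single site. Its replicate 1 peak of 2.11 overlapped one of 1.54 in replicate 2. Adra2a, the autoreceptor of noradrenergic neurons, had 2.28 and 1.43, and Adra2c had 1.76 and 1.03. Adrb3, best known from fat tissue, was weaker with 0.970 and 0.614.

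Dopamine receptor genes were mostly without a promoter peak. Drd1, the Gs-coupled receptor, was the exception with 3.27 in replicate 1 and 1.75 in replicate 2 (2.51 ± 1.07). Its peak spans the start site. Drd4 had one in replicate 2 alone (0.641). Drd2, the target of antipsychotic drugs, Drd3 and Drd5 had none, although the wider lists gave weak promoter peaks in both libraries at Drd2 (0.370 and 0.220), Drd5 (0.330 and 0.214) and Drd4 (0.680 and 0.641).

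Of the 14 serotonin receptor genes, 10 had a promoter peak in both libraries, and all 10 were modest. The highest was Htr5a, with 1.64 in replicate 1 and 1.70 in replicate 2. Htr6, a Gs-coupled receptor, followed with 1.38 and 1.48, and Htr1a, the autoreceptor of serotonin neurons that also inhibits pyramidal cells, with 1.54 and 1.03. Htr2b, Htr3a, Htr1b, Htr5b and Htr7 had between 0.527 and 1.40. The weakest were Htr2c, on the single X chromosome of males, with 0.693 and 0.514, and Htr1f with 0.528 and 0.414. At Htr2c and Htr1f the promoter peaks of the libraries did not overlap each other, the only such cases among the 26 genes with a peak in both. Htr2a, a Gq-coupled receptor of pyramidal cells and the target of psychedelics, had promoter peaks in replicate 2 alone (0.821), and Htr4 in replicate 1 alone (0.746). Htr1d and Htr3b, the second subunit of the serotonin-gated channel, had none.

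Only 3 of the 16 nicotinic genes carried a promoter peak in both libraries. Chrnb1, the beta subunit of the muscle receptor, had 2.63 in replicate 1 and 3.66 in replicate 2 (3.15 ± 0.729). Its peak was stronger than 77.2% of all peaks of replicate 1 and 94.4% of those of replicate 2. Chrna7, which forms calcium-permeable channels by itself, had 3.31 and 1.91 (2.61 ± 0.988). Chrnb2, the partner of Chrna4 in the main heteromeric receptor of the brain, had 1.24 and 0.834. Chrna4 itself had a promoter peak in replicate 2 alone (0.474), as had Chrna9 (0.687), a subunit of inner ear hair cells. Chrna1, Chrna2, Chrna3, Chrna5, Chrna6, Chrna10, Chrnb3, Chrnb4, Chrnd, Chrne and Chrng had none. Chrnb1 was thus the only one of the 5 muscle subunit genes with an accessible promoter.

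The promoter call differed between the libraries at 6 of 49 receptor genes. They were Adra1a (1.26), Htr2a, Chrna9, Drd4 and Chrna4 in replicate 2 and Htr4 in replicate 1. Of all protein-coding genes, 58.7% had a promoter peak in both libraries and 36.8% in neither. Differing calls were thus a smaller share of all genes than of receptor genes, a difference in small counts that was not tested. The Adra1a peak was above the library median of 0.894, and the other 5 were below the medians of their libraries. At 5 of the 6, all but Chrna9, the wider lists held a promoter peak in both libraries. With the wider lists 35 of 49 receptor genes had a promoter peak in both libraries (63.3% of all genes), among them 29 of the 31 G protein-coupled receptor genes and 6 of the 18 channel genes. Of the 17 genes without a promoter peak in the shorter lists, the wider lists gave one in both libraries at 4 (Chrm5, Chrna5, Drd2 and Drd5), in 1 library at 3 (Chrna3, Chrna10 and Htr3b) and in neither at 10. At these 10, Chrna1, Chrna2, Chrna6, Chrnb3, Chrnb4, Chrnd, Chrne, Chrng, Drd3 and Htr1d, no base within 1 kb of a start site was listed at a false discovery rate of 0.05 or below in either library.

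Promoters rich in CpG are accessible in most tissues, and many receptor promoters were poor in CpG. The observed over expected CpG ratio was taken from 500 bp on each side of the most upstream start site of a gene. It had a median of 0.417 over the receptor genes and 0.571 over all genes. It was 0.511 for the G protein-coupled receptor genes and 0.241 for the channel genes. At a ratio of 0.6 or above, 11 of 15 receptor genes had a promoter peak in both libraries (91.3% of all such genes). Below 0.6, 15 of 34 had one (29.2% of all such genes). By bin of the ratio, the count was 2 of 7 (Htr2b and Htr3a) from 0 to 0.2, where 7.17% of all genes had a peak, and 5 of 15 from 0.2 to 0.4, where 25.7% did. It was 8 of 12 from 0.4 to 0.6, where 68.4% did, 8 of 12 from 0.6 to 0.8, where 88.9% did, and 3 of 3 from 0.8 to 1, where 94.1% did. CpG-rich receptor genes without a peak in both libraries were Chrna3, Chrna4, Drd2 and Drd5. A promoter peak could lie at any start of the gene, and at Adra1b and Adrb3, both in the bin from 0.2 to 0.4, it lay only at another start. With the most upstream start alone, 24 receptor genes had a promoter peak in both libraries, and the shares by bin were not computed. These are small counts, and the difference was not tested.

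**Figure D2:**
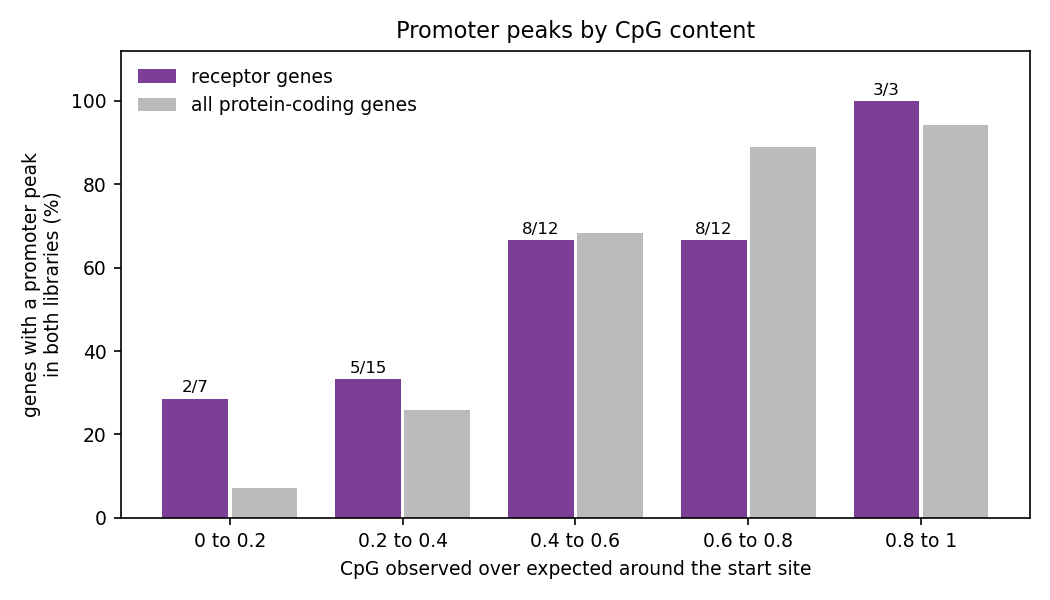
Percent of genes with a promoter peak in both libraries (vertical axis) by bin of CpG observed over expected ratio (horizontal axis), for receptor genes (left bar, with counts) and all protein-coding genes (right bar). The receptor bars are higher than the all-gene bars below a ratio of 0.4, lower between 0.6 and 0.8, and near them in the other bins.

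Distal peaks were found at 32 receptor genes in replicate 1 (58.3% of all genes had one), at 40 in replicate 2 (67.5% of all) and at 32 in both (56.4% of all). Per 100 kb of gene and flanks the median was 1.78 in replicate 1 and 3.74 in replicate 2 over the receptor genes, against 1.73 and 3.18 over all genes. In all, 64 distal peaks in replicate 1 and 129 in replicate 2 were assigned to receptor genes, of which 39 and 95 lay within the gene itself and the rest in its flanks. Another protein-coding gene covered 11 and 13 of them. Replicate 2 had more distal peaks at 27 receptor genes, replicate 1 at 1, Chrm4, and the libraries had equal counts at 21. Genome-wide, replicate 2 also listed more distal peaks, 84002 against 47853 in replicate 1. The shares of all genes with more in either library were not computed, so these counts are not read as particular to receptor genes.

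**Figure D3:**
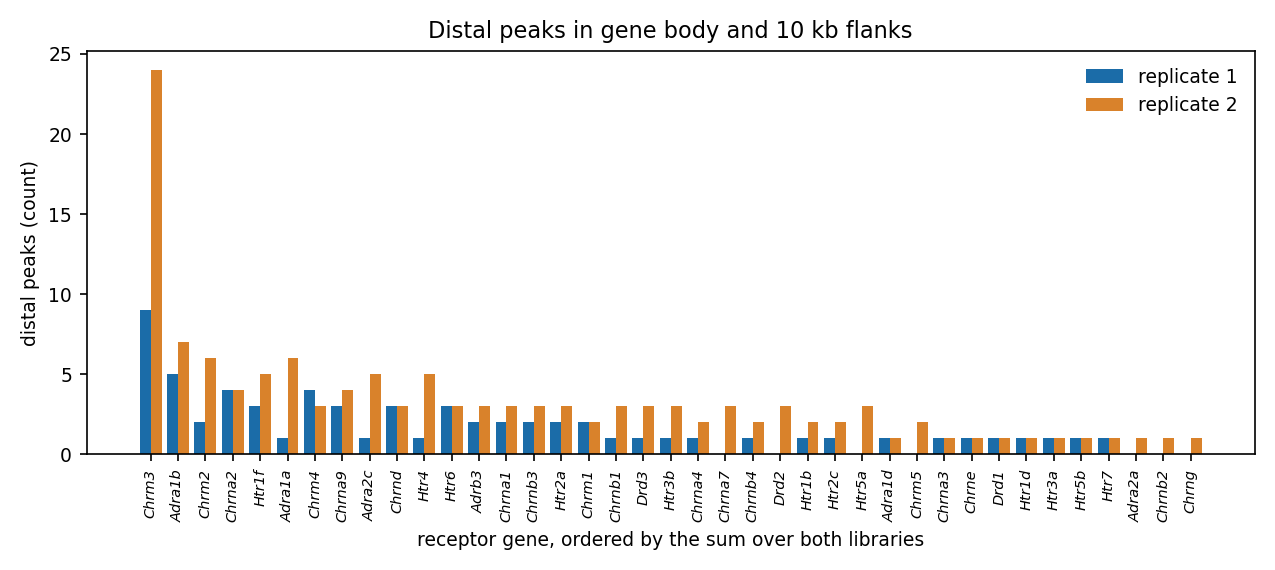
Number of distal peaks (vertical axis) in the receptor genes reported here that had any, in replicate 1 (left bar) and replicate 2 (right bar), ordered by the sum. Chrm3 leads with 9 in replicate 1 and 24 in replicate 2.

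Chrm3 had the most distal peaks, with 9 in replicate 1 and 24 in replicate 2, over a gene of 485.4 kb, and all of them were intronic. Most were weak: the strongest reached 2.15 and 2.44, and the next strongest had 1.16, in replicate 2. Per 100 kb this came to 1.78 and 4.75, near the median of the receptor genes. Adra1b followed with 5 and 7, of which the strongest intronic one had 3.06 and 1.87. Chrm2 had 2 and 6, all intronic, led by a peak of 1.77 and 1.84. Htr1f had 3 and 5, and its 3 shared intronic peaks were higher in replicate 2, at 1.72, 1.48 and 1.15 there against 0.944, 0.950 and 0.779 in replicate 1.

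Adra1a had 1 distal peak in replicate 1 and 6 in replicate 2, and Adra2c had 1 and 5, of which 3 of the 5 lay in its coding exon. Chrna2 had 4 and 4, but 3 of each lay in the neighbouring kinase gene Ptk2b. Chrna9 had 3 and 4, all intronic. Chrnd had 3 and 3, all upstream, with 2 of each in the protease gene Prss56. Chrm4 had 4 and 3, of which 1 in replicate 1 lay in Mdk and 1 in each library in Dgkz. Htr4 (1 and 5) and Htr6 (3 and 3) reached the same sum as Chrnd and Adra2c. Peaks in neighbouring genes cannot be tied to either gene by these data.

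Some receptor genes without an open promoter had strong peaks inside or beside the gene. Chrna1, the muscle alpha subunit, had an intronic peak of 3.92 in replicate 1 and 3.49 in replicate 2, and a second of 2.37 and 1.64. Drd3 had an intronic peak of 2.63 and 1.03. A single peak of 3.60 and 1.49 across a coding exon of Chrna3 was assigned to both Chrna3 and its neighbour Chrnb4, and Chrna5, the third gene of that cluster, had none. Chrne had a peak of 2.07 and 1.02, which lay in Mink1, and Htr3b one of 2.28 and 1.05 upstream.

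Of the 26 receptor genes with a promoter peak in both libraries, 10 had a distal peak stronger than every promoter peak of the gene in each library: Adra1b, Adrb3, Chrm1, Chrm2, Chrm3, Htr1b, Htr1f, Htr3a, Htr5b and Htr6. The share over all genes was not computed, so this count is not read as particular to receptor genes. Htr1b, a receptor on axon endings, had promoter peaks of 0.812 in replicate 1 and 0.994 in replicate 2, and a downstream peak of 5.03 and 2.996. Htr2a had an intronic peak of 4.80 and 2.50, centred at 2701 bp from its start. Chrm1 had an upstream peak of 4.05 and 3.15, centred at -1944 bp from the start. Chrna9 had an intronic peak of 3.84 and 2.12, and Htr3a a downstream peak of 3.70 and 1.30.

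No peak of any kind was present in the shorter lists at 4 genes: Chrna5, Chrna6, Chrna10 and Drd5. Chrna6 pairs with Chrnb3 in midbrain dopamine neurons, Chrna10 pairs with Chrna9 in hair cells, and Chrna5 is an accessory subunit of Chrna4-type receptors. A further 5 genes, Adra2b, Adrb1, Htr1a, Htr2b and Drd4, had promoter peaks but no distal peak, which made 9 without a distal peak in either library.

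**Figure D4:**
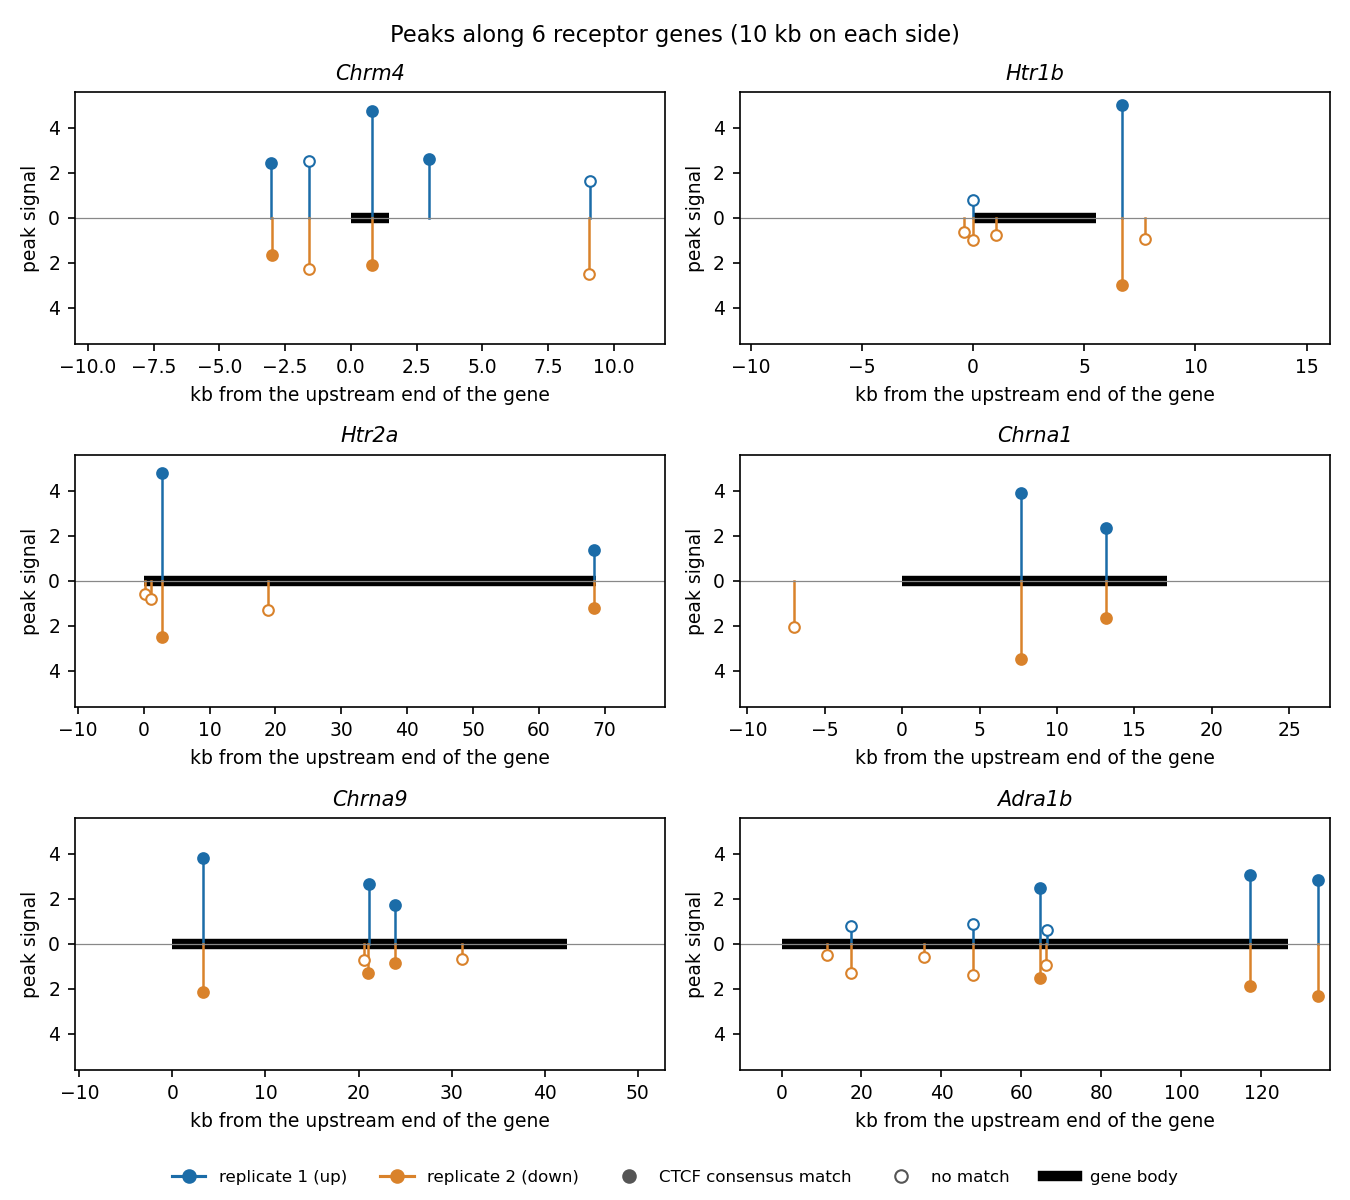
Peaks along 6 receptor genes, with distance from the upstream end of the gene in kb (horizontal axis) and peak signal in authors' units (vertical axis), replicate 1 upward and replicate 2 downward. The black bar is the gene, and filled points mark peaks with a CTCF consensus match. The tallest replicate 1 point in each gene is filled. The 6 genes are a selection, and some not shown, such as Chrm1 and Chrna7, had no match in their tallest replicate 1 peak.

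A CTCF consensus match was also present in strong receptor gene peaks that are not printed above. Of the 20 strongest receptor gene peaks of each library, 16 in replicate 1 and 10 in replicate 2 held a match. Among all peaks at least as strong as the weakest of the 20, 46.2% and 33.0% did. This comparison mixes distal and promoter peaks in unlike proportions. In the strongest 25% of replicate 1, 17 receptor gene peaks were distal and 6 lay at promoters, against 8188 and 10149 of all peaks. Each set of 20 includes printed sequences, which had been seen before the consensus was chosen. Without the printed ones the counts were 10 of 12 and 7 of 15. Distal peaks of Chrna1, Chrna9 and Chrm1 had also been seen by then and remain in these counts, which are thus not independent of the choice. Distal receptor gene peaks held one in 46.0% in replicate 1 (29 of 63) and 28.9% in replicate 2 (37 of 128), against 39.0% and 24.7% of all distal peaks. The share went up with peak strength in receptor genes and genome-wide alike: among distal peaks in the strongest 25% of the library's peaks, 14 of 17 in replicate 1 and 12 of 24 in replicate 2 held a match, against 73.3% and 41.5% of all such distal peaks. Among the other distal peaks it was 15 of 46 and 25 of 104, against 31.9% and 20.7%.

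At promoters the matching shares were 37.3% in replicate 1 (19 of 51 receptor gene promoter peaks) and 35.2% in replicate 2 (19 of 54), against 22.0% and 20.8% of all peaks within 1 kb of a start site. In the strongest 25% they were 4 of 6 and 6 of 11, against 24.8% and 23.7%. These counts are small, and the differences were not tested. Of the distal matches all 14 positions lay in footprints of the same library in 26 of 29 in replicate 1 and 23 of 37 in replicate 2. Of the promoter matches this held for 5 of 19 in each library. These footprint shares were not computed over all matching peaks, so they are not read as particular to receptor genes. A match describes the letters and shows no binding.

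A matching distal peak was present in both libraries at 21 receptor genes, and 10 of these had no promoter peak in either library: Chrna1, Chrna2, Chrna3, Chrnb3, Chrnb4, Chrnd, Chrne, Drd3, Htr1d and Htr3b. Chrna3 and Chrnb4 share the same peak. Neither count was taken over all genes, so they are not read as particular to receptor genes. The strongest distal peak of Chrm1, at 4.05 and 3.15, was an exception, with no match at 2 mismatches or fewer.

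Shared distal peaks with and without a CTCF match differed in their signal between the libraries. Of the distal receptor gene peaks of replicate 1 that overlapped a peak of replicate 2, the 28 with a match had a median signal of 2.32 in replicate 1 and 1.29 in replicate 2, and 26 of the 28 were higher in replicate 1 (median log2 ratio of replicate 1 over replicate 2, 0.77). The 29 without a match had medians of 0.878 and 1.28, and 4 of the 29 were higher in replicate 1 (median log2 ratio -0.48). The same held over all shared distal peaks, at 77.0% of those with a match and 30.8% of those without (median log2 ratios 0.55 and -0.28). At promoters the contrast was smaller: 11 of 15 shared receptor gene peaks with a match and 13 of 24 without were higher in replicate 1, against 78.7% and 66.2% of all shared promoter peaks. By gene, the strongest promoter peak was higher in replicate 1 at 19 of the 26 receptor genes with one in both libraries (75.5% of all such genes). The large gaps between the libraries at Chrm4, Adra2b and Drd1 fell at peaks with a match, but Chrna7 and Htr3a, whose promoter signals were also higher in replicate 1 (3.31 against 1.91 and 1.36 against 0.747), had none in that peak. Of the 2 genes among the 10 strongest that were higher in replicate 2, Chrm1 had a match in its promoter peak and Chrnb1 had none. Shared distal peaks with a match were also the stronger ones in replicate 1, so match and peak strength cannot be told apart here. The replicate 2 list was also the longer. The parts of peak strength and list length in this difference were not tested.

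**Figure D5:**
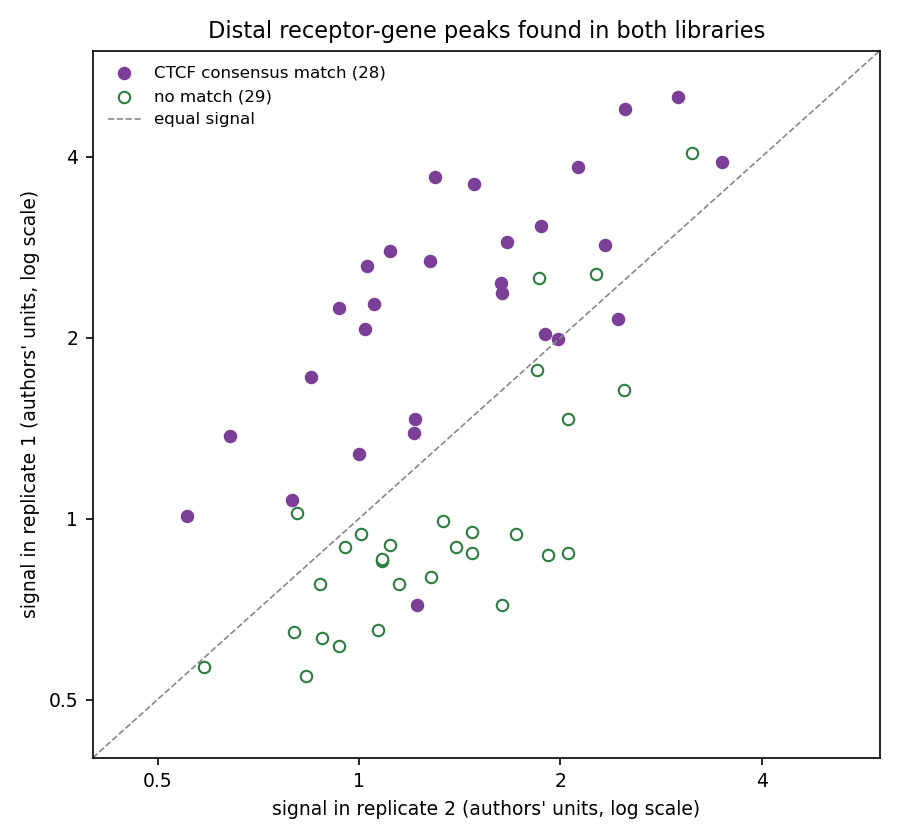
Signal in replicate 1 (vertical axis) against the strongest overlapping peak of replicate 2 (horizontal axis), both in authors' units on log scales, for the distal receptor gene peaks found in both libraries. Filled points have a CTCF consensus match and open points none, and 26 of 28 filled but 4 of 29 open points lie above the dashed line of equal signal.

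Receptor gene peaks had a partner in the other library about as often as all peaks did. Replicate 1 held 114 distinct receptor gene peaks, of which 84.2% had a partner in replicate 2, against 85.8% of all its peaks. Replicate 2 held 182, of which 52.7% had a partner in replicate 1, against 56.1% of all its peaks. Among the strongest 25% of the library's peaks, 22 of 23 receptor gene peaks in replicate 1 and 34 of 35 in replicate 2 had a partner, against 98.6% and 96.9% of all such peaks. The exceptions were the Chrm4 peak in Mdk in replicate 1 (2.61) and the upstream Chrna1 peak in replicate 2 (2.03). Among the weaker peaks it was 74 of 91 and 62 of 147, against 81.6% and 42.4%. At 24 of the 26 receptor genes with a promoter peak in both libraries, promoter peaks of the libraries overlapped. At 5 of the 26, Adrb1, Chrm2, Htr7, Htr2c and Htr1f, the strongest promoter peak of each library was a different one. At the other 21 it was the same. The shares of all genes with overlapping promoter peaks, or with a different strongest one, were not computed.

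Short RefSeq promoter windows around the start (assembly GRCm38) matched 37 of the 49 receptor genes, with 42 windows, and 16498 protein-coding genes, with 20121 windows. The GC box GGGCGG, on either strand, was in 54.8% of the receptor gene windows and in 47.7% of all. The AP-1 site TGANTCA was in 9.52% (Adra1b, Chrna1, Htr2b and Htr2c) and in 6.99% of all. The EGR site GCGTGGGCG was in the window of Htr7 alone, and GGACAGCGC, the right part of the REST element, in that of Htr5a alone, against 0.88% and 0.542% of all. The cyclic AMP response element TGACGTCA was in 0 of 42 windows, against 2.31% of all. The left part of the REST element, TTCAGCACC, was also in 0 of 42, against 0.408%.

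Genes of the same pathways were set beside the share of all genes with a promoter peak in both libraries, 58.7%, or 91.3% at a CpG ratio of 0.6 or above. That ratio was reached by 11 of 12 G protein alpha subunit genes, 6 of 7 receptor kinase and arrestin genes, 4 of 6 nicotinic assembly genes, 0 of 9 genes of monoamine synthesis and breakdown, 4 of 7 monoamine transporters and 2 of 5 genes of acetylcholine handling. G protein alpha subunit genes had a promoter peak in both libraries at 11 of 12, with the strongest at Gna11 (8.44 ± 1.19, SD, n = 2), a Gq-type subunit, and Gnaz (7.86 ± 0.965), a Gi-type subunit, and with Gna14 in replicate 2 alone (0.460). Receptor kinase and arrestin genes had one at 7 of 7, with the strongest at Grk4 (9.22 ± 1.17), whose peak also lies within 1 kb of the start of Nop14, and Grk6 (9.11 ± 0.941). All 4 of these signals were above that of every receptor gene.

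Nicotinic receptor assembly and modulation genes had one at 5 of 6, led by the chaperone Ric3 (4.55 ± 1.03) and the inhibitor Lynx1 (1.69 ± 0.174), with Lypd6b without. Among genes of monoamine synthesis and breakdown it was 4 of 9, led by the degrading enzyme Maoa (2.47 ± 0.562) and by Dbh (2.09 ± 0.237), which makes noradrenaline, while Th and Ddc had none. Among monoamine transporters it was 1 of 7, Slc18a1 (6.75 ± 3.15), whose peak is shared with the start of Atp6v1b2. The plasma membrane transporters Slc6a3 and Slc6a4 had none. Among genes of acetylcholine handling it was 2 of 5, the esterases Ache (1.62 ± 0.0293) and Bche (0.557 ± 0.00447), while the synthetic enzyme Chat and the vesicle transporter Slc18a3 had none.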

How the data were processed

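DNase-seq of left cerebral cortex was analysed in 2 libraries of a single group. Per the notes deposited with the files, the authors called peaks and footprints in each library from its own alignments on mm10, without pooling. The aligner and the callers were not given in the sources used here. Each peak carries a deposited signal, which is 1 value per peak with no stated scaling. No read counts were used, so the depth is unknown and no counting interval is given. The authors deposited per-base q-values, which are listed at 0.05 or below. Footprints carry a constant deposited score, which was not used. The reference derives from C57BL/6J, so accessible sites on CAST alleles that differ from it may be undercalled.

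Peaks were assigned to the protein-coding genes of GENCODE M21 (basic annotation, protein-coding transcripts) with python 3.11.15, numpy 2.4.6 and pandas 2.3.3. Sequences were read with pysam 0.24.0, and figures were drawn with matplotlib 3.10.9. An overlap of 1 bp made a peak shared. The assignment was tested on simulated data. Peaks of 1 list can overlap each other and were counted as listed.

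Counts and medians over the receptor genes are set beside those over all genes, with no test. The receptor genes are named, except for 1 that counts in the totals and is not reported here. Full values are given for the 10 with the highest mean promoter signal, the 10 with the most distal peaks, those whose promoter call differs between libraries and those with no peak. Of other genes, at most the 2 strongest and 2 without a peak are named per list. The genes, lists and motifs were chosen with earlier results of these data known. The alternatives were the wider lists, equal numbers of peaks, other distances and flanks, other start sites, a stronger overlap, a signal minimum and each library alone.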

Additional observations from a re-analysis of the deposited data

How the results depend on the processing

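Of 41 alternative values for 6 results, 38 stayed within 1.5 times (counts) or within the SD of the libraries (medians and shares), and 3 moved further. The SD rule is loose. A median from 1 library alone always lies within the SD of both, so those values could not move. The SD was 22.2 percentage points for the share of peaks found in both libraries and 1.39 for distal peaks per 100 kb. With the wider peak lists the median number of distal peaks per 100 kb over the receptor genes was 5.20, against 2.76 as the mean of the libraries with the shorter lists, and the median promoter signal of receptor genes with a peak in both libraries was 1.13, against 1.57. These lists add weak peaks by construction. Within gene bodies alone the median was 1.45 distal peaks per 100 kb, with 0 in replicate 1 and 2.90 in replicate 2. This counted as within the SD only because that SD is wide. When only peaks at or above the median signal of their library were counted, 16 receptor genes had a promoter peak in both libraries, against 26. Each library alone gave 27 to 31 receptor genes with a promoter peak, 32 to 40 with a distal peak, 1.78 to 3.74 distal peaks per 100 kb and a median promoter signal of 1.45 to 1.70. With the 73221 strongest peaks of each library 22 receptor genes had a promoter peak in both. With RefSeq start sites it was 25, and 24 had promoter peaks that overlapped between the libraries, both chosen after seeing the data. No paired analysis was possible because there is a single group. With 2 libraries, weak peaks found in 1 list alone cannot be told apart from missed calls in the other.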
